A study of Mus musculus with 10 samples.

Results

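Whole-transcript arrays measure many stretches of the genome that the array's annotation ties to no gene symbol. Each row of the deposited value table is a transcript cluster, a group of probes that the array design treats as 1 transcription unit, and its identifier starts with TC followed by the chromosome and a running number. Of 65770 such rows, 33185 had no gene symbol in the annotation and 32585 had at least 1. The rows without a symbol, called unsymbolled rows here, were kept apart from each other and compared between the kidneys of control and knockout mice. No measured value was used to choose them. A missing symbol does not mean that a row holds no gene: 1291 of the 21900 protein-coding genes in RefSeq matched no row by symbol or Entrez identifier.

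The knockout mice carried floxed alleles of Lkb1 (gene symbol Stk11) and the KspCre transgene, in which Cre recombinase is driven by the promoter of the kidney cadherin gene Cdh16. The controls were littermates with the floxed allele on 1 chromosome (Lkb1 flox/+) or on both (Lkb1 flox/flox) and without the transgene, so the presence of Cre cannot be told apart from the loss of Lkb1. There were 5 mice per genotype, all 5 weeks old, and 1 whole kidney array per mouse, made from 500 ng of total RNA. The titles speak of a knockdown, the design text names a dog kidney cell line and the strain label gives C57Bl/6N although the floxed line is described as mixed; the account here follows the breeding protocol and the mouse tissue labels. In whole kidneys, fewer cells of a type and less RNA per cell cannot be told apart.

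LKB1 is a kinase that switches on AMPK and its relatives, and through them affects cell metabolism, growth and polarity. The mammalian genome is transcribed well beyond its protein-coding genes, into long non-coding RNAs, transcripts that run from promoters in either direction, extensions past the end of genes and RNA from introns. An array row between named genes may measure any of these, or an exon of a gene that the annotation left without a name.

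Values are on a log2 scale, so a difference of 1 is a doubling of the signal. Differences are knockout minus control, each with its standard error (SE) over 5 against 5 mice from limma, a linear model fitted to all 65770 rows with moderated variances. A row was called higher or lower at a Benjamini-Hochberg adjusted p under 0.05 over all rows. The 5222 probe sets labelled as negative controls gave a scale for dim signal: their median was 5.22 and their 95th percentile 7.97. Whether their probes match no transcript was not tested, and 0.019% of them lay between 14.0 and 14.25. Signals of different rows were set against this scale and not ranked as amounts of RNA, since probes differ in brightness.

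The targeted gene was read first. Stk11 (chr10:80115767-80130679, mm10 positions from RefSeq) measured 9.43, 9.40, 9.48, 9.46 and 9.40 in the controls and 9.12, 9.21, 9.07, 9.21 and 9.31 in the knockouts. Every knockout lay below every control, and the difference was -0.25 (SE 0.05, limma adjusted p = 0.0155). An exact two-sided permutation test gave p = 0.00794, the smallest that 5 against 5 can give. Centred on the negative controls, the adjusted p for Stk11 was 0.107.

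Markers of kidney cell types were read next, and the mean proximal tubule marker level of 12.20 to 12.29 in controls fitted the tissue label. Among the rows of marker genes, all 12 for macrophages, 9 for fibroblasts and matrix and 7 for tubular injury were higher in the knockouts. Lower were 7 of 8 for the thick ascending limb (the other was higher) and 5 of 7 for intercalated cells. So were 3 of 6 for the distal convoluted and connecting tubule and 2 of 8 for the proximal tubule. The mean macrophage marker level was 6.77 to 7.03 in controls and 7.48 to 8.28 in knockouts, and that of fibroblast markers 7.79 to 8.10 and 8.74 to 9.54. Of the rows for principal cells 2 were higher and 1 lower, of those for urothelium 3 of 6 were higher and of those for lymphocytes 2 of 6. Neither the 4 podocyte nor the 5 endothelial rows passed the limma test, with 0 and 1 of them at an unadjusted p under 0.05. The part of these shifts in the results on unsymbolled rows was not tested.

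Unsymbolled rows were mostly dim. Their median signal over all arrays was 4.86 (quartiles 3.91 and 5.94), and that of rows with a symbol was 6.17 (quartiles 4.52 and 7.90). Below the median of the negative controls lay 19521 unsymbolled rows (58.8%), between their median and 95th percentile 11717 (35.3%), and above the 95th percentile 1947 (5.87%). The corresponding shares of rows with a symbol were 35.5%, 40.4% and 24.0%. Most unsymbolled rows were thus in the range of most negative control probe sets.

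**Figure D1:**
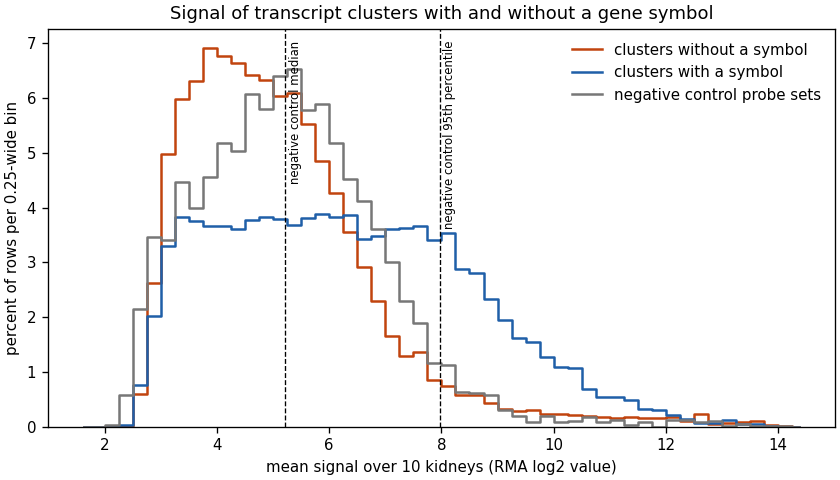
Distribution of mean log2 signal over the 10 arrays for unsymbolled rows, rows with a symbol and negative control probe sets. Unsymbolled rows centred on 4.86, below the negative control median of 5.22, and 5.87% of them lay above the negative control 95th percentile of 7.97.

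The brightest unsymbolled rows were at the top of the array's range and did not pass the test. TC1100003794.mm.1, on chromosome 11 between the named rows of Retreg3 and Plekhh3, measured 14.07, 14.12, 14.28, 14.21 and 14.18 in controls and 14.26, 14.22, 14.26, 14.18 and 14.19 in knockouts, with overlapping groups (difference 0.05, SE 0.04, limma adjusted p = 0.544). TC0400001746.mm.1 and TC0900002348.mm.1 carried the same 10 values although their identifiers name chromosomes 4 and 9, with control means of 14.01 and knockout means of 14.12. TC0200002613.mm.1 and TC1600002087.mm.1 completed the 5 brightest, at differences of 0.01 and -0.02.

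Shared values were not limited to that pair. In all, 826 unsymbolled rows had 10 values identical, to 6 decimals, to those of another transcript cluster row. They fell into 207 sets, of which 72 spanned more than 1 chromosome, 14 included a row with a symbol and the largest held 63 rows. Only 11 called unsymbolled rows belonged to such sets, and the 720 calls below held 714 distinct value profiles.

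Of the 33185 unsymbolled rows, 720 differed between the genotypes (2.17%, against 3.86% of all rows). They divided into 339 higher in the knockouts (1.02%, background 2.54%) and 381 lower (1.15%, background 1.32%), so that 47.1% of the calls were increases. Among rows with a symbol, 1334 were higher and 484 lower, and 73.4% of the calls were increases. The increases among unsymbolled rows measured 0.15 to 3.36 with a median of 0.45, and the decreases 0.18 to 1.19 with a median of 0.35. Rows at least 1.5-fold apart numbered 92 higher (background 0.633%) and 49 lower (background 0.16%), and at least 2-fold apart 17 higher (background 0.172%) and 5 lower (background 0.0274%).

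The balance between increases and decreases depended on how the arrays were scaled. Quantile normalization of the deposited values gave 389 higher and 285 lower (57.7% increases), and centring each array on its negative controls gave 489 higher and 228 lower (68.2% increases). Leaving out 1 array at a time, the count of higher rows ran from 168 without knockout 2 to 631 without knockout 5, and that of lower rows from 182 without knockout 3 to 623 without knockout 5. Counts of higher rows also moved past 1.5 times without control 3 (179), knockout 1 (220) and knockout 3 (200). Those of lower rows did so without control 1 (247), control 3 (241), control 5 (233) and knockouts 1 (220), 2 (208) and 4 (222).

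Separation of the groups was counted next, without regard to the limma test. All 5 knockouts lay above all 5 controls in 415 unsymbolled rows (1.25%, background 3.13%) and below them in 760 (2.29%, background 2.85%). Of the 720 called rows, 571 were separated in this way. The median difference over all unsymbolled rows was -0.05, beside -0.03 for rows with a symbol.

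Signal level divided the calls by direction. Above the negative control 95th percentile, 176 of 1947 unsymbolled rows were called (9.04%), 137 higher and 39 lower. Between the median and the 95th percentile 317 were called (2.71%), 122 higher and 195 lower, and below the median 227 (1.16%), 80 higher and 147 lower. Rows with a symbol had 11.8%, 5.86% and 1.03% called at the same 3 levels. In the bright class increases outnumbered decreases under quantile normalization (102 and 65) and negative control centring (135 and 34) too, whereas in the dim class the majority turned to increases under both (130 and 58, 85 and 44). In the middle class it stayed with decreases under quantile normalization (157 and 162) and turned under centring (269 and 150).

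**Figure D2:**
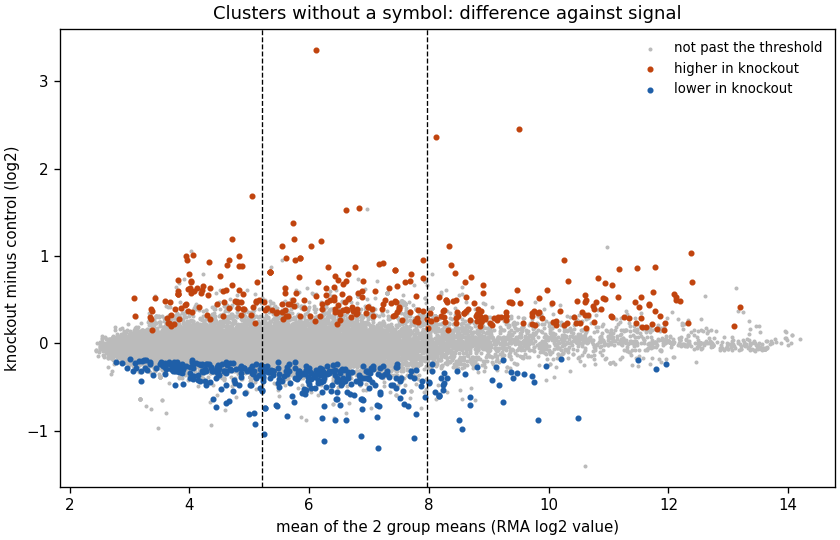
Difference between knockout and control (log2) against the mean log2 signal of each unsymbolled row, with the negative control median and 95th percentile drawn as lines and called rows coloured by direction. Of the 176 calls above the 95th percentile, 137 were increases.

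The knockout mice were not alike in how far they moved. Among the 339 higher rows, knockout 3 was the highest knockout in 174 and knockout 5 the lowest in 204. Among the 381 lower rows, knockout 3 was the lowest in 144 and knockout 5 the highest, and so nearest to the controls, in 158. The median shift of the higher rows from the control mean was 0.42, 0.49, 0.53, 0.39 and 0.27 in knockouts 1 to 5. The macrophage marker mean was likewise highest in knockout 3, at 8.28, and lowest of the knockouts in knockout 5, at 7.48.

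The order of identifiers helped to place unsymbolled rows. Among rows with a single symbol and a RefSeq position, 98.0 to 99.8% of steps from 1 identifier to the next ascended along the chromosome on chromosomes 1 to 19 and X. On each chromosome except 18, whose strands were not used here, the first block of numbers held plus-strand genes (at least 99.0%) and the second minus-strand genes (at least 94.4%). The nearest row with a single symbol on each side within the block is therefore given as the neighbour of an unsymbolled row, with the gene's mm10 position from RefSeq. Coordinates of the unsymbolled rows themselves were not used here, and whether a row overlaps its neighbour was not read from the order. For a row whose dimmer group averaged below the negative control median, any fold printed is given as a lower bound. It was taken after every value below the negative control median of its own array, in either group, was raised to that median.

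The 10 largest increases and decreases described next were taken from the called rows with separate groups, which leaves out called rows whose groups overlapped. The largest increase was next to Bmp3, which encodes a ligand of the bone morphogenetic protein family. TC0500000954.mm.1 on chromosome 5 measured 4.30, 4.63, 4.26, 4.77 and 4.18 in controls and 7.88, 8.23, 7.97, 7.85 and 7.02 in knockouts. All knockouts stood far above all controls, with the controls below the negative control median (difference 3.36, SE 0.19, at least 5.9-fold, limma adjusted p = 9.64e-06). Its left neighbour Bmp3 (chr5:98854415-98884053), 1 identifier away, was higher by 2.19 (SE 0.18, limma adjusted p = 8.17e-05), from a mean of 6.83 to 9.02. On the other side 4930405H06Rik, a long non-coding RNA 5 identifiers away, had a difference of -0.03.

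The next largest increase had no called gene on either side. TC1700002352.mm.1 on chromosome 17 measured 8.53, 8.23, 7.96, 8.39 and 8.31 in controls and 11.05, 10.92, 11.17, 10.40 and 10.12 in knockouts. The groups were far apart and both bright, with knockouts 4 and 5 the lowest of their group (difference 2.45, SE 0.18, 5.48-fold, limma adjusted p = 4.73e-05). The neighbours did not pass the test: Tnfsf14 (chr17:57189474-57194181), which encodes a cytokine of the TNF family, differed by 0.06 and Gpr108 (chr17:57234914-57248743) by -0.06. The starts of the 2 neighbours lie 45.4 kb apart.

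TC0100003603.mm.1 lay between Olfr419, an olfactory receptor gene, and Rgs7, a regulator of G protein signalling, on chromosome 1. It measured 6.85, 7.09, 6.80, 7.23 and 6.72 in controls and 9.65, 9.99, 9.42, 9.43 and 7.99 in knockouts. Knockout 5 stood apart from the other knockouts and yet above every control (difference 2.36, SE 0.29, 5.13-fold, limma adjusted p = 0.00111). Olfr419 and Rgs7 differed by 0.05 and 0.08 and were themselves below the negative control median.

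Knockout 3 was the highest kidney in the next 3 increases. TC1600001513.mm.1, beside the mucin gene Muc20 on chromosome 16, measured 4.30, 4.37, 4.11, 4.42 and 3.84 in controls and 6.06, 6.26, 6.94, 5.30 and 4.91 in knockouts (difference 1.69, SE 0.30, at least 1.65-fold, limma adjusted p = 0.00991). The groups did not overlap, and knockouts ranged over more than the controls did. Muc20 itself differed by 0.67 and did not pass (limma adjusted p = 0.217).

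On chromosome 15, 2 rows of this kind stood in different strand blocks between pairs of named genes whose spans overlap in part. How far apart the rows lie was not read from the order. TC1500000993.mm.1, in the plus-strand block between B130046B21Rik (start 98806315) and 4930578M01Rik (start 98985965), measured 5.70, 6.02, 6.02, 6.30 and 6.25 in controls and 7.48, 7.80, 8.74, 7.24 and 6.79 in knockouts. TC1500002201.mm.1, in the minus-strand block between Tuba1a (start 98949847) and C1ql4 (start 99084086), measured 5.39, 5.93, 5.96, 5.98 and 5.99 in controls and 7.20, 7.44, 8.52, 7.03 and 6.70 in knockouts. The knockouts kept the same order from 3 down to 5 in both rows, and neither row's groups overlapped. The differences were 1.55 (SE 0.28, limma adjusted p = 0.00963) and 1.53 (SE 0.27, limma adjusted p = 0.00849). Tuba1a, an alpha-tubulin gene, was higher by 0.43 (limma adjusted p = 0.0138), while C1ql4 differed by -0.03.

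The remaining increases among the 10 largest measured 1.12 to 1.20. TC0200004365.mm.1 lay between Scg5 (chr2:113776313-113829091), which encodes a secretory granule chaperone, and Arhgap11a (chr2:113831492-113848661), and measured 5.70, 5.90, 5.48, 5.43 and 5.57 in controls and 6.99, 7.18, 6.46, 7.25 and 6.08 in knockouts. Its groups did not overlap, with knockout 5 the nearest to the controls (difference 1.17, SE 0.20, limma adjusted p = 0.00707). Scg5 was higher by 1.19 (limma adjusted p = 0.00239) and Arhgap11a by 0.30 (limma adjusted p = 0.0154), and Arhgap11a lost its call when arrays were centred on the negative controls (0.0571). TC0600001799.mm.1, between Bet1 and Sgce on chromosome 6, was higher by 1.12 (SE 0.16, limma adjusted p = 0.00299). TC1200002525.mm.1 was higher by 1.20 (SE 0.19, at least 2.12-fold, limma adjusted p = 0.00506), but its neighbours by number, Serpina3f and Dnaaf2, lie far apart on chromosome 12 and in descending order, so the order does not place it.

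**Figure D3:**
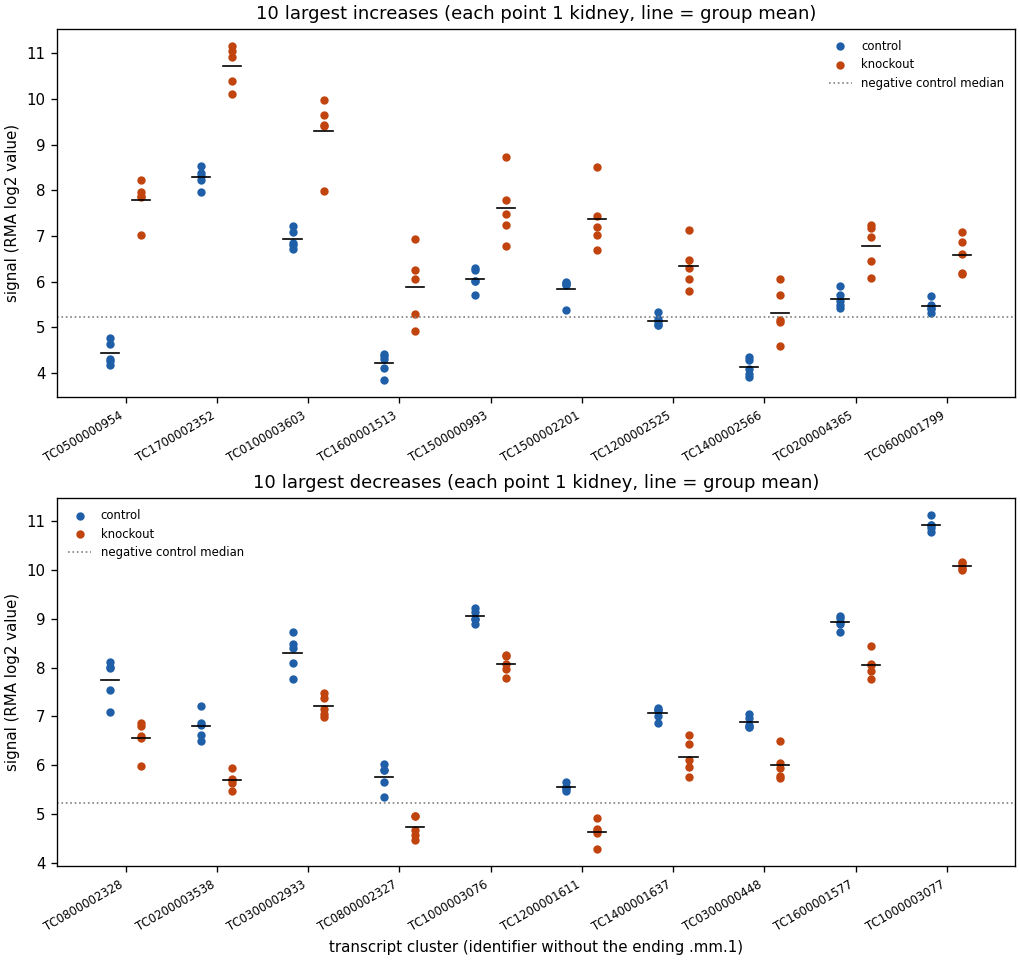
Log2 signal in each kidney for the unsymbolled rows with the 10 largest increases and 10 largest decreases among called rows with separate groups, each control and knockout array shown as a point. Bars mark group means and the dotted line the negative control median; groups are separate in every row shown, and the knockout values spread widest in increases such as TC1600001513.mm.1, at 4.91 to 6.94.

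The smallest p among increases belonged to TC0500000954.mm.1, TC1700002352.mm.1 and TC0700002949.mm.1. The last of these, next to Cd33 (chr7:43527399-43537424), a sialic acid receptor of myeloid cells, measured 5.07, 4.94, 5.00, 4.90 and 5.09 in controls and 6.34, 6.10, 6.26, 5.95 and 5.92 in knockouts. The groups were tight and separate (difference 1.11, SE 0.08, at least 1.84-fold, limma adjusted p = 4.94e-05). Cd33 was higher by 0.64 (limma adjusted p = 6.56e-04). On the other side Gm2511 differed by -0.02.

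The largest decreases were smaller in size than the largest increases. TC0800002328.mm.1 on chromosome 8 measured 7.53, 8.11, 7.09, 7.99 and 8.02 in controls and 6.86, 6.60, 5.99, 6.56 and 6.80 in knockouts (difference -1.19, SE 0.20, limma adjusted p = 0.00734). TC0800002327.mm.1, the preceding identifier, measured 5.90, 6.02, 5.34, 5.65 and 5.89 in controls and 4.67, 4.56, 4.46, 4.96 and 4.95 in knockouts (difference -1.04, SE 0.13, at least 1.45-fold, limma adjusted p = 0.00164). In both rows the groups did not overlap and control 3 was the lowest control. The named rows around this pair, the small nuclear RNA Gm24205 (start 66002346) and Tma16 (start 66476343), differed by -0.08 and 0.03 and did not pass the test. The 10 values of Gm24205 were identical in 49 rows, so they do not belong to this place alone.

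Several decreases lay beside genes of the thick ascending limb, the nephron segment that reabsorbs salt and magnesium. TC0300002933.mm.1, next to Egf (chr3:129677574-129755322), which encodes epidermal growth factor, measured 7.77, 8.72, 8.09, 8.48 and 8.40 in controls and 7.05, 7.48, 7.38, 6.99 and 7.15 in knockouts. The groups did not overlap (difference -1.08, SE 0.16, 2.12-fold, limma adjusted p = 0.00319), and Egf itself went from 12.81 to 11.85 (difference -0.96, limma adjusted p = 1.53e-04).

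TC1600001577.mm.1, next to Casr (chr16:36490585-36562141), the calcium-sensing receptor gene, measured 9.01, 9.06, 8.94, 8.89 and 8.73 in controls and 7.93, 8.06, 7.77, 8.08 and 8.45 in knockouts. Knockout 5 was again the nearest to the controls without reaching them (difference -0.87, SE 0.11, limma adjusted p = 0.00116), and Casr differed by -0.62 (limma adjusted p = 0.00227). TC0900000290.mm.1, next to Kcnj1 (chr9:32372418-32399197), which encodes the ROMK potassium channel, measured 8.15, 8.23, 7.93, 8.33 and 8.33 in controls and 7.51, 7.67, 7.48, 6.60 and 7.68 in knockouts. Here knockout 4 stood far below the rest (difference -0.81, SE 0.18, limma adjusted p = 0.0244), and the call was lost without control 1, 4 or 5, with an adjusted p of up to 0.0577. Kcnj1 differed by -0.41 (limma adjusted p = 0.00454).

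Another decreasing pair stood beside a carrier gene. TC1000003077.mm.1 and TC1000003076.mm.1 are the identifiers next to Slc16a7 (chr10:125219270-125389586), which encodes a monocarboxylate transporter. The first measured 11.13, 10.92, 10.87, 10.92 and 10.78 in controls and 10.02, 10.06, 9.99, 10.16 and 10.15 in knockouts, and the second 9.22, 9.13, 8.90, 9.0 and 9.0 in controls and 7.98, 8.08, 7.78, 8.23 and 8.26 in knockouts. Both were bright and tightly separated, at -0.85 (SE 0.06, limma adjusted p = 4.72e-05, the smallest among the decreases) and -0.98 (SE 0.09, limma adjusted p = 1.73e-04). Slc16a7 differed by -0.82 (limma adjusted p = 1.30e-04).

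Decreases without a neighbour called in the same direction included the other rows among the 3 smallest p-values. TC1100003157.mm.1, between Haspin and Emc6 on chromosome 11, measured 5.51, 5.32, 5.34, 5.44 and 5.41 in controls and 4.62, 4.61, 4.42, 4.57 and 4.74 in knockouts (difference -0.81, SE 0.07, at least 1.14-fold, limma adjusted p = 8.92e-05). TC1000001607.mm.1, between Gm26347 and Smarcc2, a chromatin remodelling gene on chromosome 10, measured 7.59, 7.29, 7.67, 7.65 and 7.55 in controls and 6.85, 6.79, 6.64, 6.61 and 6.66 in knockouts (difference -0.84, SE 0.08, limma adjusted p = 1.65e-04). Both had separate groups, and the neighbours of each differed by -0.10 to 0.01. TC1200001611.mm.1, at -0.92 (SE 0.10, at least 1.25-fold, limma adjusted p = 5.24e-04), had Pik3cg, a phosphoinositide kinase gene of leukocytes, 6 identifiers away, which moved the other way (0.44, limma adjusted p = 0.00719). TC1400001637.mm.1, at -0.88 (SE 0.14, limma adjusted p = 0.00487), had the small nucleolar RNA Gm25697 and the calcium channel gene Cacna2d3 as neighbours, at -0.05 and 0.01.

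Consecutive identifiers sometimes changed together. There were 6 runs of 3 or more adjacent unsymbolled rows all called in 1 direction, holding 24 rows, of which 1 run was higher and 5 were lower. The longest, 6 rows from TC0200003534.mm.1 to TC0200003539.mm.1, lay between Cacnb4 (chr2:52428320-52676609), a calcium channel subunit gene, and Stam2 (chr2:52692206-52742149). Its differences ran from -1.11 to -0.31 with the groups separate in all 6 rows. Its largest, TC0200003538.mm.1, measured 6.49, 7.22, 6.62, 6.87 and 6.82 in controls and 5.70, 5.71, 5.63, 5.47 and 5.95 in knockouts, so that no kidney crossed to the other group (SE 0.12, limma adjusted p = 6.37e-04). Cacnb4 differed by -0.76 (limma adjusted p = 2.03e-04) and Stam2 by 0.11 (limma adjusted p = 0.231). Of the run, TC0200003537.mm.1 lost its call under negative control centring (0.106).

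The single run of increases, TC0100003192.mm.1 to TC0100003194.mm.1, lay next to Gm4788 on chromosome 1, which was higher by 0.79 (limma adjusted p = 0.0170). TC0100003193.mm.1 measured 10.72, 10.95, 10.92, 10.62 and 10.52 in controls and 11.81, 11.83, 11.91, 11.50 and 10.92 in knockouts. Knockout 5 lay within the control range in this row, and the other knockouts lay above it (difference 0.85, SE 0.16). The other rows of the run differed by 0.81 and 1.12.

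The remaining runs were decreases of moderate size. TC0300000448.mm.1 to TC0300000451.mm.1, 4 rows between Rnf13 and Tsc22d2 on chromosome 3, differed by -0.88 to -0.43, while both neighbours differed by -0.04. TC1600001415.mm.1 to TC1600001418.mm.1, 4 rows between P3h2, a prolyl hydroxylase gene, and Cldn1, a tight junction gene, differed by -0.71 to -0.55, with P3h2 at -0.31 (limma adjusted p = 0.0181) and Cldn1 at 0.37 (limma adjusted p = 0.0490). TC1400000285.mm.1 to TC1400000288.mm.1, 4 rows after Erc2, a gene of presynaptic scaffolds, differed by -0.53 to -0.25, with Erc2 at -0.51 (limma adjusted p = 8.59e-04); this run lay outside the naming rule and was named after its values were seen. TC1100002526.mm.1 to TC1100002528.mm.1, 3 dim rows next to Tenm2, differed by -0.66 to -0.31, with Tenm2 at -0.25 (limma adjusted p = 0.0184). In these 4 runs, 7 rows lost their call under at least 1 alternative: TC0300000450.mm.1, TC1100002526.mm.1, TC1400000286.mm.1, TC1400000287.mm.1, TC1400000288.mm.1, TC1600001415.mm.1 and TC1600001418.mm.1.

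Taking every called unsymbolled row with a protein-coding gene 1 identifier away gave 372 pairs of row and gene. In 181 pairs the row was higher, and the gene was also higher in 39 (21.5%) and lower in 3 (1.66%). In 191 pairs the row was lower, and the gene was also lower in 33 (17.3%) and higher in 6 (3.14%). Next to rows that did not pass the test, in 16026 pairs, 4.37% of genes were higher and 2.12% lower. Of the 81 pairs in which both were called, 72 moved in the same direction and 9 in opposite directions. A row may lie in or beside its neighbour, so members of a pair may share RNA, and no test of the overlap was made.

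**Figure D4:**
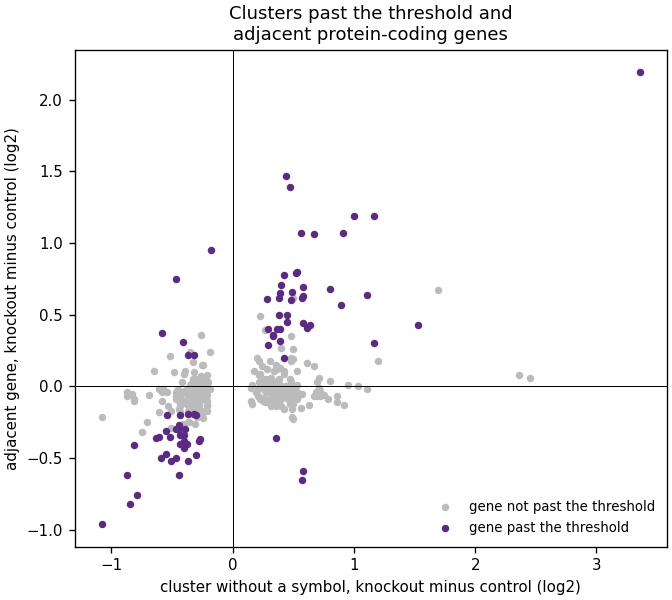
Difference of each called unsymbolled row (log2) against that of its adjacent protein-coding gene (log2) over the 372 pairs. In the 81 pairs with both called, 72 fall in the same-direction quadrants and 9 in the others.

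The share of unsymbolled rows called was described by chromosome, without a test. On chromosomes 1 to 19 and X the percentage ran from 1.31 on chromosomes 12 and X to 3.13 on chromosome 14, and among rows with a symbol from 3.92 to 8.45. On each of these 20 chromosomes the percentage was lower for unsymbolled rows, a difference that was not tested. Decreases outnumbered increases on 12 of the 20 and increases outnumbered decreases on 6. Chromosome 10, which carries Stk11, had 31 of 1813 called (8 higher and 23 lower). Of all unsymbolled rows 2.17% were called, and of those on chromosome 10 1.71%. Within 1 Mb of Stk11 0 of 32 were called, within 5 Mb 2 of 240 (0.833%) and within 10 Mb 4 of 337 (1.19%). Whether these shares differ was not tested. The distances from Stk11 are approximate, since rows were placed through named neighbours and not by coordinates of their own.

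**Figure D5:**
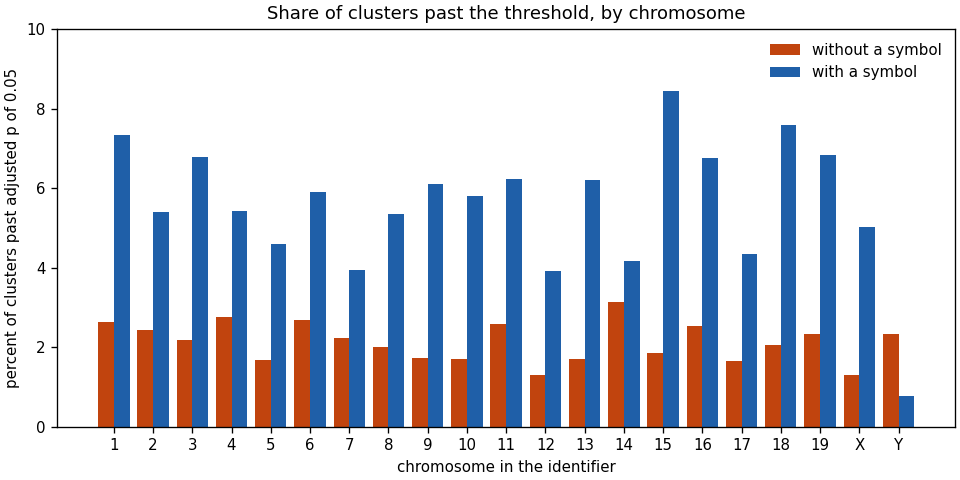
Percentage of rows called per chromosome among unsymbolled rows and among rows with a symbol. Unsymbolled rows ran from 1.31% on chromosomes 12 and X to 3.13% on chromosome 14 over chromosomes 1 to 19 and X, and lay below rows with a symbol on each of them.

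The largest called row of each remaining autosome and of the X chromosome follows. TC1000001734.mm.1, next to Samd5 on chromosome 10, measured 4.20, 4.55, 4.30, 4.33 and 4.25 in controls and 5.29, 5.47, 5.52, 5.10 and 5.27 in knockouts, with separate groups (difference 1.00, SE 0.09, at least 1.08-fold, limma adjusted p = 1.30e-04), and Samd5 was higher by 1.19 (limma adjusted p = 9.64e-06). TC0400000800.mm.1 on chromosome 4 was bright in both groups, at 10.45 ± 0.28 in controls and 11.20 ± 0.14 in knockouts (SD, n = 5 each, limma adjusted p = 0.00423). TC1900000900.mm.1 on chromosome 19 went from 9.04 ± 0.30 to 8.34 ± 0.24 (SD, n = 5 each, limma adjusted p = 0.0184), a call lost without knockout 2 (0.0516). TC0X00000443.mm.1 on the X chromosome was higher by 0.98 (SE 0.16, at least 1.76-fold, limma adjusted p = 0.00512), and TC1300001359.mm.1 on chromosome 13 by 0.95 (SE 0.17, limma adjusted p = 0.00927). TC1100002259.mm.1 on chromosome 11, dim at 3.56 ± 0.09 in controls and 4.57 ± 0.57 in knockouts (SD, n = 5 each, limma adjusted p = 0.0211), lost its call without control 1, control 3, knockout 1 or knockout 2 (up to 0.0540). TC1800001608.mm.1 on chromosome 18 went from 6.08 ± 0.27 to 5.41 ± 0.34 (SD, n = 5 each, limma adjusted p = 0.0378) and lost its call under 10 of 18 alternatives (up to 0.0999).

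Called rows on the Y chromosome and on unplaced contigs were all increases. On the Y chromosome 7 of 300 unsymbolled rows (2.33%, against 2.54% of all rows higher) were higher, by 0.57 to 0.70, with control means of 3.51 to 3.91 below the negative control median. TC0Y00000012.mm.1, TC0Y00000242.mm.1 and TC0Y00000554.mm.1 had the same group means, 3.52 and 4.09, though not the same 10 values. Whether the Y rows measure separate sequences was not tested. On unplaced contigs 7 of 101 (6.93%, against 2.54% of all rows) were higher, by 0.40 to 0.82, and 4 of these 7 held the same 10 values. Among rows with a symbol on these contigs 4 of 55 (7.27%) were higher, a similar share. On the mitochondrial chromosome 1 of 19 (5.26%) was higher, TC0M00000024.mm.1, at a control mean of 3.19 and with overlapping groups (difference 0.37, SE 0.09, limma adjusted p = 0.0314). Its call was lost under 8 of 17 alternatives (up to 0.0819). These rows sat in the range of probes without a target.

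A dim cluster of increases stood out on chromosome 14, chosen after its values were seen. Between the small RNA genes Gm23509 (start 93138030) and Gm23324 (start 94448221) lay 29 unsymbolled rows, of which 13 were higher, by 0.30 to 1.20, and all 29 had a positive difference. Over all transcript cluster rows 2.54% were higher, and over unsymbolled rows 1.02%, with a median difference of -0.05 over the latter. The mean signals of the 29 rows were 3.08 to 4.72. Over the 13 called rows the medians were 3.74, 3.72, 3.86, 3.66 and 3.78 in controls and 4.69, 4.92, 4.88, 4.33 and 3.95 in knockouts, so knockout 5 was closest to the controls. The largest of them, TC1400002566.mm.1, measured 4.08, 3.92, 4.36, 4.29 and 3.97 in controls and 5.11, 5.71, 6.06, 5.15 and 4.58 in knockouts, with separate groups (difference 1.20, SE 0.22, at least 1.18-fold, limma adjusted p = 0.0115). Another dim stretch, between Mir3106 and Gm25665 on chromosome 8, held 18 unsymbolled rows. Of these 5 were higher, and 15 had a positive difference. The neighbours moved the other way: Gm25665 differed by -0.37 (limma adjusted p = 0.0226) and Mir3106 by -0.16 (limma adjusted p = 0.547).

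The 3 brightest called rows in each direction were as follows. TC1700001047.mm.1 measured 13.00 ± 0.07 in controls and 13.19 ± 0.08 in knockouts (SD, n = 5 each, limma adjusted p = 0.0282), TC0600000001.mm.1 12.99 ± 0.27 and 13.41 ± 0.10 (limma adjusted p = 0.0477), and TC0400001297.mm.1 12.05 ± 0.33 and 12.75 ± 0.35 (limma adjusted p = 0.0453). The brightest decreases were TC0700004165.mm.1, TC1000001063.mm.1 and TC0X00002556.mm.1, at -0.24, -0.29 and -0.19. All 6 lost their call under at least 1 alternative fit, TC0700004165.mm.1 under negative control centring alone (0.117).

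At the threshold itself, TC0500001400.mm.1 on chromosome 5 was just inside, with means of 5.29 and 5.65 (adjusted p = 0.0497 by limma), and TC0400002554.mm.1 on chromosome 4 just outside, with means of 5.81 and 5.61 (adjusted p = 0.0502 by limma). The second had wholly separate groups and the first did not.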

How the data were processed

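RNA from whole kidneys of 5 control and 5 knockout mice was hybridised to Affymetrix whole-transcript arrays, 1 per mouse. The authors deposited log2 values per transcript cluster made with RMA, on mm10, per the submitters' processing notes; that the scale is log2 was taken from the values' range. RMA, as usually run, brings arrays to a shared distribution, so a shift common to most rows would not be seen. The software's version is not given in the sources used here. The labels give no batch.

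Rows were named through the platform annotation, with 827 symbols updated through Entrez identifiers; 2146 rows with several symbols counted as having a symbol. limma 3.58.1 in R 4.3.3 (lmFit, eBayes with trend) was fitted to all 65770 transcript cluster rows, without the 6918 control or unmapped rows, and p-values were adjusted by Benjamini-Hochberg. No dim row was left out. The procedure was tested on simulated data. Array medians were 5.35 to 5.42. Arrays carry no read depth; their number limits precision.

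Rows named were the 10 largest called increases and decreases with separate groups, the 3 smallest p in each direction, the 5 brightest, the largest per chromosome, the 3 brightest calls in each direction, the rows on either side of the threshold, and the 5 runs of 3 or more with the largest median difference. Their neighbours were named too. The rows and lists were chosen with earlier results of these data known. Alternatives were 2 scalings, 2 signal filters, 2 variance models, array weights, a replicate block and all table rows. Others were 2 thresholds, identical rows counted once (chosen after seeing the data) and each array left out. The calls of single rows were followed over the fits that held the row, called alternative fits. The 2 thresholds and the single counting of identical rows were not among these.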

Additional observations from a re-analysis of the deposited data

Results flagged for a closer look

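Among 94 groups of 5 arrays tested for a single distant sample with Dixon's ratio, 8 had one, and chance gives about 1 in 20. Control 1 was the lowest control in TC1500002201.mm.1 at 5.39, in TC0200002613.mm.1 at 14.01, and in TC0400001746.mm.1 and TC0900002348.mm.1, which share their values, at 13.68. Knockout 5 was the lowest knockout in TC0100003603.mm.1 at 7.99 and in TC0400001297.mm.1 at 12.14. Knockout 4 was the lowest in TC0900000290.mm.1 at 6.60, and knockout 3 the highest in TC0600000001.mm.1 at 13.59.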

How the results depend on the processing

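The counts of unsymbolled rows moved most with the arrays, the scaling and the threshold. Leaving out 1 array gave 168 to 631 higher and 182 to 623 lower rows. Fitting all rows of the table gave 248 lower, centring on the negative controls 228 lower, and keeping only rows above the negative control 95th percentile 207 higher and 82 lower. An adjusted p under 0.01 left 74 higher and 66 lower, and a fold of at least 1.5 left 92 and 49. The cause of these shifts was not tested, except that stricter thresholds and fewer rows tested change the counts by construction. The other count settings stayed within 1.5 times. The targeted gene, Stk11, was at -0.24 with an adjusted p of 0.107 when centred, and kept its call in the other alternative fits. It reached neither stricter threshold, at a limma adjusted p of 0.0155 and 1.19-fold. Among the brightest rows, none of them called, TC1100003794.mm.1 turned to -0.00 and TC0200002613.mm.1 to -0.03 under quantile normalization, and the latter ran from -0.00 to 0.03 with 1 array left out. Of 62 called rows (those named by the rule and all rows of the runs), 42 passed under every alternative fit that held them. Over all these fits 951 values kept the call and 164 lost it. The 10 largest increases and the 10 largest decreases kept theirs in every such fit. Dim rows were not held by the signal filters and so were not tested under them. Among these 20 rows, TC1400002566.mm.1 missed the 0.01 threshold, at a limma adjusted p of 0.0115. Whether replicate numbers pair the samples was not settled. Deviations of same-numbered arrays correlated at 0.209, 0.326, 0.054, -0.106 and 0.141. Those of differently numbered arrays ran from -0.282 (control 2, knockout 1) to 0.206 (control 3, knockout 1). The replicate block gave 362 higher and 484 lower.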

Other observations

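The values here were chosen after they were seen. The brightest large increase was TC0500001025.mm.1 on chromosome 5, at 11.69, 11.86, 11.94, 12.01 and 11.86 in controls and 13.05, 12.97, 13.24, 12.67 and 12.58 in knockouts. Every knockout lay above every control (difference 1.03, SE 0.11, limma adjusted p = 5.24e-04), and the call held under every alternative run. Its neighbours in identifier order, Mepe (chr5:104325329-104338611), which encodes a phosphoglycoprotein of bone matrix, and Thoc2l, differed by -0.00 and 0.02.

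Of the 72 pairs of row and gene that moved in the same direction, 6 are given here. TC0200001880.mm.1 went from 9.0 to 8.38 beside Slc12a1, the salt cotransporter gene of the thick ascending limb, which went from 12.58 to 12.23. TC1300000895.mm.1 went from 8.47 to 7.87 beside Slc9a3, a sodium-proton exchanger gene (10.76 to 10.26), and TC1400001289.mm.1 from 6.62 to 6.15 beside Cldn10, a tight junction gene (10.89 to 10.39). The call was lost under 9 alternatives for TC1400001289.mm.1 and under 5 for Slc9a3. On the side of increases, TC0600000011.mm.1 stood beside the collagen gene Col1a2 (8.59 to 9.66), TC0900001723.mm.1 beside Birc3 (7.32 to 8.0), an inhibitor of apoptosis gene, and TC0800002926.mm.1 beside Il34 (6.59 to 7.30), a ligand of the macrophage receptor Csf1r. Their differences were 0.56, 0.80 and 0.40, and the first lost its call under 7 alternatives.

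Of the 9 opposite pairs, 3 are given. TC1500001828.mm.1 was higher by 0.57 beside Pvalb, a calcium buffer gene of the distal convoluted tubule, which differed by -0.65. Both calls held under every alternative fit, though the row was 1.49-fold higher, just short of the 1.5-fold threshold. TC1100002033.mm.1 was higher by 0.58 beside the glucagon receptor gene Gcgr at -0.59, and TC0100003534.mm.1 differed by -0.18 beside Fcer1g, a signalling chain of leukocyte receptors, which was higher by 0.95. These last 2 rows lost their call under 10 and 12 alternatives.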
